A study of Mus musculus with 18 samples.

Results

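The immediate early genes described here are Fos, Fosb, Jun, Junb, Egr1, Atf3, Ier2, Dusp1 and Nr4a1, which are 9 of the 16452 genes in the count table. They were taken by matching the Ensembl identifiers of the table to the symbols of GENCODE M21, and each symbol gave 1 row. RNA was sequenced from whole epididymal white adipose tissue (eWAT), the fat depot that lies along the epididymis, of male C57BL/6 mice with the genotype label WT and of the generation labelled Fm. By the labels each mouse was sired from a zygote into which one of the microRNAs let-7d and let-7e, or a control named negative, had been microinjected, and the treatment names of all 3 groups carry IVF. All groups had chow until week 6 and then the diet named LFD until week 15, while the age label reads 24 weeks; the labels do not settle between these ages. The libraries compared were 5 of the control group, 6 of let-7d and 6 of let-7e, 17 in all. Nothing in the labels says how many founders or litters the mice of a group come from, so p-values measure the spread between these samples.

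Immediate early genes are transcribed within minutes of a stimulus from factors that are already in the cell, without new protein synthesis, and their RNAs are short-lived. Growth factors, hormones, stress and handling of tissue all act on them through mitogen-activated protein (MAP) kinases, serum response factor and cyclic AMP signalling. In fat tissue they are known from the first steps of adipocyte differentiation. Fos, Fosb, Jun and Junb encode subunits of AP-1, a dimeric transcription factor; Atf3 encodes a stress-responsive factor of the related ATF family; Egr1 encodes a zinc finger factor and Nr4a1 an orphan nuclear receptor. Ier2 encodes a nuclear protein of the same response, and Dusp1 encodes a phosphatase that switches MAP kinases off.

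The libraries held 12717365 to 28972306 counts, and 16432 of the 16452 genes had a symbol. All 15 adipocyte markers listed were measured, with a summed level of 38576 to 76374 CPM (counts scaled to library size with TMM factors) over the libraries. Control 3 stood apart with 17465 CPM of 4 epididymis and vas deferens genes and 18094 CPM of 11 smooth muscle genes, against at most 31.5 and 978 CPM elsewhere. Control 6 held 1808 CPM of 10 spermatid genes, against at most 80.4 CPM elsewhere. Epithelial genes summed to 603 CPM in let-7d 1, 279 CPM in let-7d 5 and 242 CPM in control 3, against at most 76.99 CPM in the other libraries. Control 3, control 6, let-7d 1 and let-7d 5 are called the 4 libraries with other tissue. By their identifiers the libraries fall into 2 series, one of digits alone (let-7d 1, let-7d 2, let-7e 1 and let-7e 2; called early) and one that starts with the letter A (the other 13; called late). No control is early, the identifiers carry no date, and all fits of the groups had the series as a term. In whole tissue, fewer cells of a type and less RNA per cell cannot be told apart.

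In GRCm38 the AP-1 subunits lie at chr12:85473890-85477273 (Fos), chr7:19302696-19310051 (Fosb), chr4:95049034-95052222 (Jun) and chr8:84974484-84978718 (Junb). Atf3 lies at chr1:191170296-191218039, Nr4a1 at chr15:101254269-101274795, Ier2 at chr8:84661331-84662852 and Dusp1 at chr17:26505590-26562128. Junb and Ier2 thus share chromosome 8. All 9 genes were detected in all 17 libraries, with the fewest counts for Fosb (12 to 78 a library). Levels per kilobase used the exon bases of all annotated transcripts of a gene. Jun was highest at 29.5 CPM per kb, followed by Dusp1 at 24.1, Ier2 at 13.2 and Junb at 10.3 CPM per kb. For Dusp1 that length was 3311 bases, against 1990 in its longest coding transcript, while Jun had 3189 by both. The order of Jun and Dusp1 thus depends on the length used. Egr1 stood at 4.61 CPM per kb, Nr4a1 at 2.95, Fos at 2.83, Atf3 at 2.55 and Fosb at 0.310. Each gene in this order overlapped the next one over the libraries, as Jun at 16.4 to 41.3 CPM per kb did Dusp1 at 16.5 to 37.2, with the exception of Fosb, whose highest library at 0.601 CPM per kb lay below the lowest of Atf3 at 1.35. By the length over all annotated transcripts, the AP-1 subunits spanned the whole range of the members, from Jun at the top to Fosb at the bottom.

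The proximal promoters of the members differed in the response elements they hold. The set of RefSeq start sites used here (GRCm38.p6) covered 7 of the 9 genes. It had no entry for Egr1 and Ier2, whose promoters were not searched. The 250 bases before each start site were searched on both strands. The letters TGACG, the core of the cyclic AMP response element at which CREB and ATF proteins bind, occurred in 6 of the 7 (Fos, Fosb, Junb, Atf3, Dusp1 and Nr4a1) and in 17.8% of 32851 mouse promoters of the same length. The full element TGACGTCA, which contains that core on both strands, occurred in Dusp1 alone and in 1.55% of all promoters. Jun had TGACATCA, the variant to which Jun and ATF2 bind, in place of it (2.93% of all). A TATA box (TATAAA) occurred in Fos (12.4% of all) and an EGR site (GCGNGGGCG) in Fosb and Nr4a1 (4.7%). Neither a CArG box, the site of serum response factor (1.47%), nor an AP-1 site (TGACTCA or TGAGTCA; 4.46%) lies within these windows. The last 150 bases before the start site are shown for members that represent these arrangements, with the cyclic AMP response element core or the TGACATCA variant in capitals. For Dusp1 a stretch of 60 bases around the full element is shown. The coordinates are chr12:85473740-85473889, strand + for Fos; chr4:95052223-95052372, strand - for Jun; chr8:84978749-84978898, strand - for Junb; chr15:101266696-101266845, strand + for Nr4a1; and chr17:26508573-26508632, strand - for Dusp1.
Fos: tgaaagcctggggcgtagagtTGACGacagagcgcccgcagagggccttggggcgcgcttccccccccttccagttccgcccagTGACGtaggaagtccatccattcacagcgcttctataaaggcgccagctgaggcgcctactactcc
Jun: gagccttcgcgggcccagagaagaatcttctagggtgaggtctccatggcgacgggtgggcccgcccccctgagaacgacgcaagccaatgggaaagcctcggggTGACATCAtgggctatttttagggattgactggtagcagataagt
Junb: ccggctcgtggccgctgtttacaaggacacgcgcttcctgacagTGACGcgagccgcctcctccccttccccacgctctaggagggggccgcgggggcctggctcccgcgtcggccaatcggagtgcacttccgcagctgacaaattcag
Nr4a1: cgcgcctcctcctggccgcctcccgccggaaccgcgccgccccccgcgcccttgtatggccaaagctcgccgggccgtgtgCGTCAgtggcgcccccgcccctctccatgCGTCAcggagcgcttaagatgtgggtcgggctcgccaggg
Dusp1: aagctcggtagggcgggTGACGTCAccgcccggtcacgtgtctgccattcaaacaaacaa
In Fos the cores start 129 and 66 bases before the start site, and in Junb the core starts 106 bases before it. In Nr4a1 the 2 cores shown lie on the opposite strand, where they read CGTCA in the strand printed, from -69 and from -40. Letters that match a motif describe these windows and are not measured binding.

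The injected microRNAs share their seed, the 7 bases that pair with target RNAs, which is in capitals. The gene of let-7d lies at chr13:48536078-48536099 on the - strand and that of let-7e at chr17:17830366-17830387 on the + strand (mature sequences, RefSeq, GRCm38.p6).
mmu-let-7d-5p: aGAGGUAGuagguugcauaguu
mmu-let-7e-5p: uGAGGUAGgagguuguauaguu
Dusp1 site: atagaagaaccaaaTACCTCAa
Of the 9 members, Dusp1 alone had a 7-base match to this seed in its longest annotated 3′ UTR (bases 461 to 467 of 690; chr17:26505812-26505833, strand -, GRCm38; in capitals), against 16.7% of 14168 measured genes with a UTR. The match pairs with bases 2 to 7 of the microRNA and ends in the A that stands across from base 1. The mice sequenced are offspring, and neither microRNA was measured here.

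**Figure D1:**
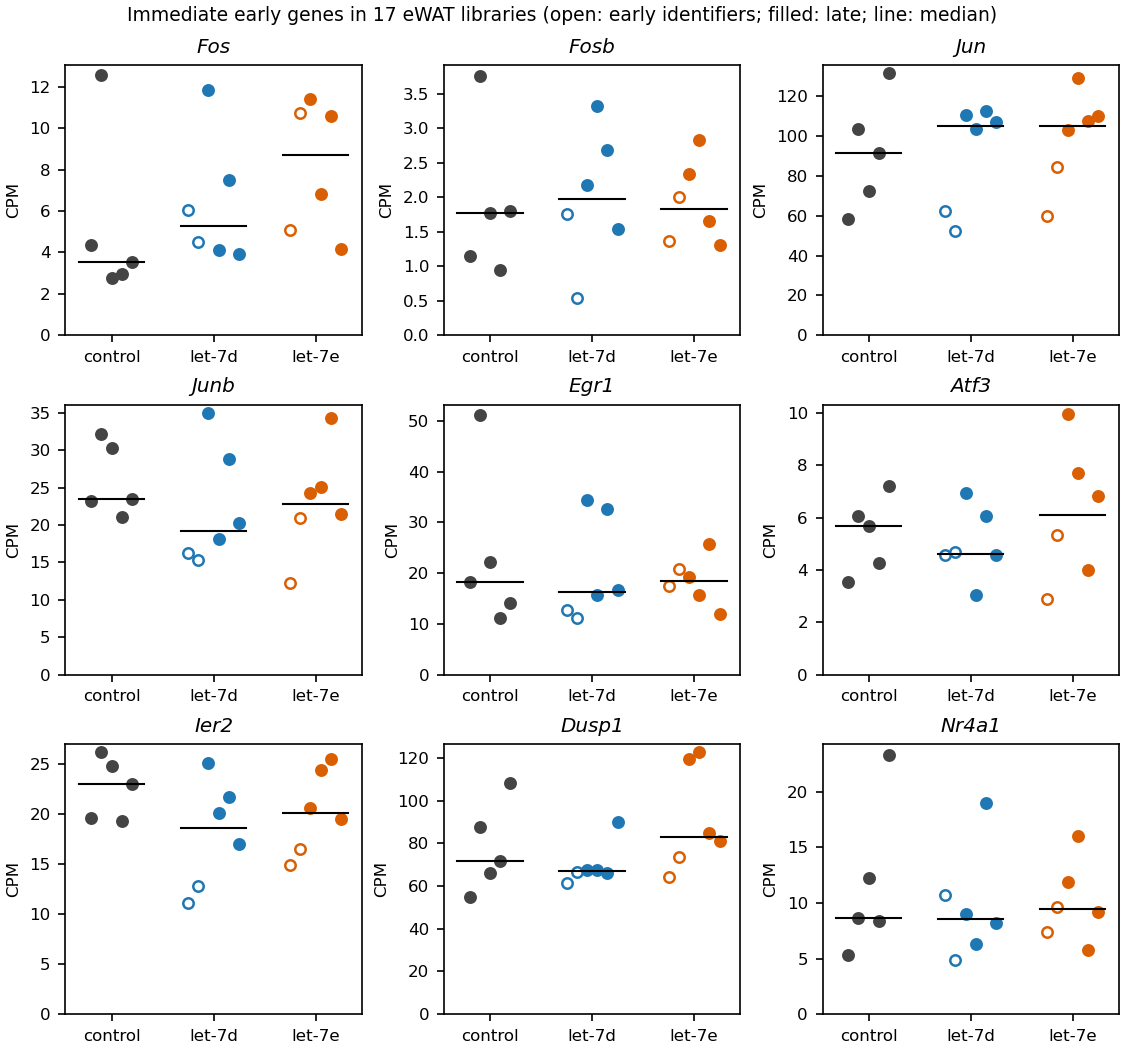
Level of each member in CPM (vertical axis, from 0) in the control, let-7d and let-7e groups, 1 point per library, with open points for early identifiers and a line at the group median. Groups overlap for all 9 genes, control 2 is far above the other controls for Fos and Egr1, and the open points lie low for Jun, Junb and Ier2.

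The first comparison asks whether the members differ in eWAT between mice of the let-7d group and the controls. None did by the test used. Fos was at 4.35, 12.6, 2.77, 2.97 and 3.56 CPM in the 5 controls (1, 2, 3, 4 and 6) and between 3.94 and 11.9 CPM, with a median of 5.29 CPM, in let-7d. Control 2 was above all let-7d libraries, controls 3, 4 and 6 were below all of them, and control 1 lay within their range. The fitted log2 fold change of Fos was 0.34 ± 0.45 (SE). Without control 2 it was 0.96, with an unadjusted p of 0.0229 and an edgeR adjusted p of 0.230, and without the 4 libraries with other tissue it was -0.05. Its close relative Fosb, at 1.88 ± 1.11 CPM (SD, n = 5) in control and 2.004 ± 0.962 CPM (n = 6) in let-7d, had a log2 fold change of 0.24 ± 0.40 (SE).

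Jun, the member with the highest mean CPM, stood at 58.2, 103, 72.5, 91.6 and 132 CPM in the controls. In let-7d it was at 52.3 to 113 CPM, with a median of 105 CPM. The 4 late let-7d libraries were close together at 104 to 113 CPM, within the range of the controls, and both early ones were lower. The fitted log2 fold change was 0.20 ± 0.17 (SE). Junb, an AP-1 subunit that can act against Jun, was at 26.0 ± 4.87 CPM in control and 22.3 ± 7.84 CPM in let-7d (SD), a fitted change of -0.03. Over the 9 genes, 4 had a higher and 5 a lower fitted value in let-7d, from -0.15 for Ier2 to 0.34 for Fos, with a median of -0.03 beside -0.04 over all genes. With edgeR's quasi-likelihood test none of the 9 had an adjusted p under 0.05, as was true of all genes (0%), and none had an unadjusted p under 0.05, where 10.2% of all genes did. No member separated the let-7d from the control libraries without overlap (0.517% of all genes). Late libraries alone gave -0.11 (Nr4a1) to 0.40 (Fos).

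The second comparison asks the same of let-7e. Fos had the largest fitted change of the members with all libraries, though its groups overlapped and the test did not call it; without the 4 libraries with other tissue Nr4a1 (0.58), Atf3 (0.55), Dusp1 (0.49), Jun (0.48) and Egr1 (-0.43) had larger changes than Fos. In let-7e it ranged from 4.15 to 11.4 CPM with a median of 8.70 CPM, against the control values given above. Of the 6 let-7e libraries 5 were above 4 of the 5 controls, and control 2 was above all 6. The log2 fold change was 0.71 ± 0.46 (SE; edgeR unadjusted p 0.142, adjusted p 0.598); without control 2 it was 1.33 (unadjusted p 0.0037, adjusted p 0.129), and without the 4 libraries with other tissue 0.38 (unadjusted p 0.482, adjusted p 0.888).

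Jun and Dusp1 came next. Jun was at 59.7 to 129 CPM in let-7e, with a median of 105 CPM, and its fitted change was 0.34 ± 0.18 (SE; edgeR unadjusted p 0.069, adjusted p 0.504). Dusp1 stood at 54.8, 87.9, 66.4, 71.6 and 108 CPM in the controls and at 64.5 to 123 CPM, with a median of 83.2 CPM, in let-7e. Let-7e 3 and let-7e 4, at 120 and 123 CPM, exceeded the highest control, and the fitted change was 0.33 ± 0.18 (SE; adjusted p 0.520). Atf3 had 0.31 ± 0.29 and Fosb 0.24 ± 0.41, while Ier2, Junb, Nr4a1 and Egr1 lay between -0.16 and 0.04. Without control 6, the highest control for both genes, Jun had 0.52 (edgeR unadjusted p 0.0044, adjusted p 0.386) and Dusp1 0.49 (unadjusted p 0.0099, adjusted p 0.400). Without the 4 libraries with other tissue Jun had an unadjusted p of 0.019 and Dusp1 one of 0.025 (edgeR adjusted p 0.706 for both). In all 7 were fitted higher and 2 lower, with a median of 0.24 beside -0.04 over all genes. With all libraries none passed in adjusted p (0% of all genes) or in unadjusted p (10.5% of all genes), and none separated the groups without overlap (0.632%). Within the late libraries Fos had 0.67, Atf3 0.43, Dusp1 0.41 and Jun 0.31, and Egr1 -0.35. Endothelial markers were fitted higher in let-7e than in control for 12 of 12 genes (median 0.31, 6 with an edgeR unadjusted p under 0.05, none called). Adipocyte markers were fitted higher for 12 of 15 (median 0.16) and stromal fibroblast markers for 10 of 14 (median 0.25). Lymphocyte markers were so for 1 of 15 (median -0.65). Smooth muscle genes (0 of 11, median -2.62) and spermatid genes (0 of 10, median -5.11) were those in which control 3 and control 6 stood apart. The part of these cell types in the values of Fos, Jun and Dusp1 was not tested. Both comparisons share their controls.

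Egr1 showed how far 1 library can carry a group mean. It stood at 18.3, 51.2, 22.2, 11.1 and 14.1 CPM in the controls, at 11.1 to 34.4 CPM (median 16.2) in let-7d and at 12.02 to 25.7 CPM (median 18.4) in let-7e. The control mean of 23.4 CPM was the highest of the 3 groups, whereas the control median of 18.3 CPM was close to the 18.4 CPM of let-7e. The fitted changes were -0.08 ± 0.38 for let-7d and -0.16 ± 0.40 for let-7e (SE), and without control 2 they were 0.42 and 0.34. Nr4a1 behaved likewise with control 6, at 23.3 CPM against 5.33 to 12.2 CPM in the other 4 controls: its changes of -0.15 and -0.10 became 0.29 and 0.33 without that library. Control 6 is also the library with spermatid transcripts, and control 3 had the epididymal ones; without these and the 2 let-7d libraries with epithelial genes, Nr4a1 had 0.04 in let-7d and 0.58 in let-7e. The part of that tissue in the values was not tested.

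**Figure D2:**
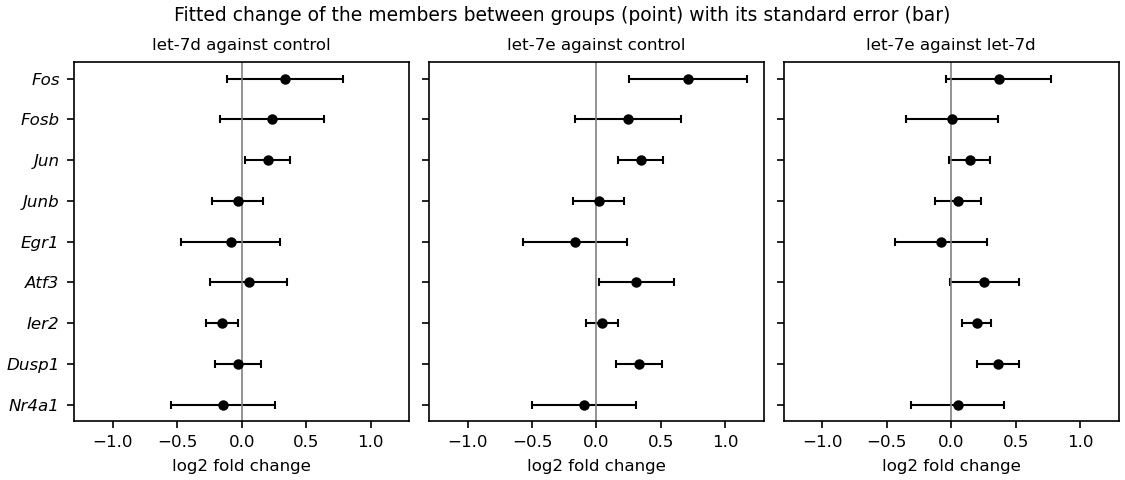
Log2 fold change of each member (horizontal axis) in 3 panels, one per comparison of groups, with its standard error as a bar. Fos has the largest value in let-7e (0.71), the bars of Fos, Fosb, Egr1 and Nr4a1 are the longest, and those of Ier2 are the shortest.

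Between the let-7d and let-7e groups, Dusp1 was the member with the smallest p. In let-7d it was at 61.5, 66.7, 67.6, 67.7, 66.1 and 90.1 CPM in libraries 1 to 6, and in let-7e at 64.5, 73.8, 120, 123, 85.2 and 81.2 CPM. Let-7d was tightly grouped apart from library 6, and 5 of the 6 let-7e libraries were above the other 5 of let-7d. The log2 fold change was 0.36 ± 0.16 (SE; edgeR unadjusted p 0.039, adjusted p 0.722), and within the late libraries 0.50; without the 4 libraries with other tissue it was 0.34 (unadjusted p 0.064). It was the 1 member of 9 with an unadjusted p under 0.05, beside 6.67% of all genes; none passed after adjustment (0%), and no member's groups were free of overlap (0.237%). In this comparison 8 of the 9 genes were fitted higher in let-7e, from 0.01 for Fosb to 0.37 for Fos, and Egr1 lower at -0.08. The median was 0.14 beside -0.01 over all genes. Dusp1 carries the let-7 match shown above, and both microRNAs share the seed it pairs with. Endothelial markers were also fitted higher in let-7e than in let-7d for 11 of 12 genes (median 0.21; 4 with unadjusted p under 0.05), and adipocyte markers for 11 of 15 (median 0.22). Epithelial genes were fitted higher for 0 of 10 (median -3.92; 7 with unadjusted p under 0.05), lymphocyte markers for 1 of 15 (median -0.36) and heat shock genes for 0 of 15 (median -0.13). Their part in the values of Dusp1 was not tested.

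The clearest difference among the members lay between the identifier series, not the groups. Ier2 was at 11.2 and 12.9 CPM in the early let-7d libraries and at 14.9 and 16.6 CPM in the early let-7e libraries, against 17.02 to 26.2 CPM (median 21.7) in the 13 late ones. No early library reached the lowest late one. Jun was at 62.6, 52.3, 59.7 and 84.6 CPM in the early libraries and at 103 to 129 CPM in the 8 late libraries of the same 2 groups, again without overlap, but control 1 at 58.2 CPM and control 3 at 72.5 CPM lay within the early range. Junb was at 16.3, 15.3, 12.3 and 20.9 CPM in the early libraries and at 18.2 to 35.0 CPM in the late ones, so that let-7e 2 was above the lowest late libraries. The fitted log2 changes, early against late, were -0.78 ± 0.17 for Jun (edgeR adjusted p 0.0071), -0.68 ± 0.20 for Junb (adjusted p 0.032) and -0.66 ± 0.12 for Ier2 (adjusted p 0.0024). These 3 passed and the other 6 did not: Fosb had -0.65, Atf3 -0.46, Egr1 -0.45, Nr4a1 -0.39, Dusp1 -0.37 (edgeR adjusted p 0.199) and Fos -0.22.

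All 9 were thus fitted lower in early libraries, with a median of -0.46 beside 0.004 over all genes. Over all genes 12.2% were called between the series, 6.72% lower and 5.46% higher in early, and 24.7% had an unadjusted p under 0.05, as 4 of the 9 members did. Ier2 alone was lower in all early than in all late libraries (4.19% of all genes), and Jun and Ier2 were lower in all early than in all late let-7d and let-7e libraries (6.13%). The call of Junb was lost in 6 of the fits that left out 1 library, with an edgeR adjusted p of up to 0.116 (without let-7e 1), and at 0.0913 without the 4 libraries with other tissue.

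The 3 members called are the 3 whose longest coding transcript has a single exon. Their GC contents of 62.6% (Junb), 60.9% (Ier2) and 55.5% (Jun) are at the 98.6th, 97.1st and 79.2nd percentile of all genes. Egr1 (57.3%), Nr4a1 (57%) and Fosb (56%), which were not called, were richer in GC than Jun. A call rests on the SE as well as on the size of a change. Fosb, with 4 exons, had -0.65 ± 0.40 (SE), beside -0.66 ± 0.12 for Ier2, and Dusp1, also with 4 exons, had -0.37 ± 0.17. The difference between the series followed GC content over the whole table. In the richest quintile of genes 25% were called lower in early and 0.274% higher, and in the poorest quintile 0.335% lower and 15.9% higher. Among coding genes of 1 exon 15.5% were called lower, against 7.27% of those with more exons; within the richest quintile the shares were 29.9% and 26.5%. With each library's trend of level with GC content taken out, an alternative chosen after the data were seen, Jun had -0.56 (unadjusted p 0.00356, edgeR adjusted p 0.0884), Ier2 -0.22 (adjusted p 0.418) and Junb -0.19 (adjusted p 0.722), and none of the 9 was called. All 9 were still fitted lower, from -0.10 (Nr4a1) to -0.56. The trend itself separated the series: genes of the richest against the poorest quintile were shifted by -0.38 to -0.46 on the log2 scale in the 4 early libraries and by 0.05 to 0.18 in the 13 late ones. The identifier series and whatever differed in handling, library preparation or sequencing between them cannot be told apart.

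**Figure D3:**
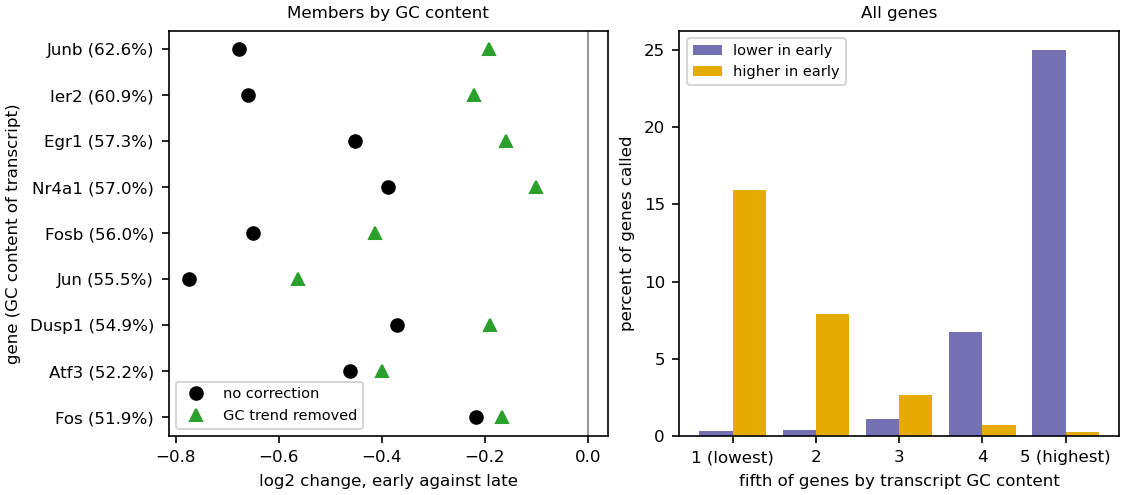
Left, log2 change of each member between early and late libraries (horizontal axis), with and without each library's GC trend, ordered by the GC content of its transcript. Right, percent of all genes called lower or higher in early libraries, by quintile of GC content; calls lower in early rise from 0.335% in the poorest to 25% in the richest quintile, and Junb and Ier2 move from below -0.6 to about -0.2 once the trend is removed.

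Other genes of the same response were read from a list of 60 primary response genes that excludes the members, of which 56 were measured. In let-7d 18 were fitted higher and 38 lower than control, in let-7e 26 higher and 30 lower; none was called by edgeR after adjustment in either, and 9 and 7 of the 56 had an unadjusted p under 0.05, beside 10.2% and 10.5% of all genes. Nfil3, a repressor of clock output genes, had the smallest p among those higher in let-7d, at 10.3 CPM on average against 5.48 CPM in control (log2 fold change 0.95 ± 0.33, edgeR adjusted p 0.456), and let-7d 6 at 21.0 CPM was the highest of all libraries. Btg2, an antiproliferative cofactor of RNA decay, had 0.37, and Tiparp, an ADP-ribosyltransferase, 0.25. On the lower side Dusp5, a nuclear phosphatase of ERK, had -2.92 in let-7d and -2.93 in let-7e, but its control mean of 17.6 CPM came from control 3 at 79.0 CPM, the library with epididymal transcripts; the other controls lay at 1.74 to 2.74 CPM and the let-7 libraries at 1.17 to 3.82 CPM. Crem, a cyclic AMP responsive factor, and Hes1, a repressor downstream of Notch, were likewise highest in control 3, at 64.3 and 70.0 CPM, and had -0.92 and -0.98 in let-7e.

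Csrnp1, a nuclear factor named for its serine-rich and cysteine-rich parts, was highest in control 6, at 33.3 CPM against 7.51 to 12.4 CPM in the other controls (log2 fold change -0.95 in let-7d). Ppp1r15a, which recruits the phosphatase that ends the integrated stress response, had 12.5 to 22.4 CPM in control and 9.97 to 15.1 CPM in let-7d, with -0.46 ± 0.16 (SE) on the log2 scale (edgeR adjusted p 0.456). Amotl2, a scaffold of cell junctions, was at 219 to 376 CPM in control and 331 to 540 CPM in let-7e, with 0.58 ± 0.17 (SE) on the log2 scale (edgeR adjusted p 0.356). Klf6, a zinc finger factor, had 0.34 and Plk2, a polo-like kinase, 0.45 in let-7e. Between let-7e and let-7d 36 were fitted higher and 20 lower, none called; Id1, an inhibitor of basic helix-loop-helix factors, had 0.61, Amotl2 0.45 and Klf10 0.29, and Nfil3 -1.07, Rhob -0.36 and Errfi1 -0.39.

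Between the identifier series 9 of these 56 genes were called, 8 lower and 1 higher in early, beside 12.2% of all genes for both directions together. Ier5l and Jund had the smallest p of those lower, at 5.56 against 11.6 CPM (log2 change -1.10, edgeR adjusted p 9.0e-04) and 44.0 against 84.3 CPM (-0.95, adjusted p 0.0014), and Socs3, which inhibits cytokine receptors, had -0.72 (adjusted p 0.032). Ier5l and Jund have 1 exon and GC contents of 63.8% and 67.1%, while Socs3 has 2 exons and a GC content of 58.7%. Klf6 was the one called higher, at 208 against 129 CPM (0.61, adjusted p 0.0031), and its GC content of 42.4% is at the 12.6th percentile; Vcl (0.57) and Tiparp (0.32) were fitted higher and not called. Of 27 kinases and factors upstream of the members 9 were called, 7 lower (Mapk3, Mapkapk2, Crtc2, Map2k7, Map2k2, Crtc1 and Rps6ka1) and 2 higher (Creb1 and Braf); these names were chosen after their values were seen. Of 16 dimer partners Atf2 was called higher and Batf2 lower. Neither list had a call in let-7d or let-7e.

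Over all genes 6.72% were called lower in early and 5.46% higher. Beside the early and late values, endothelial markers were called lower in early for 5 of 12 genes. They summed to 1371 to 1875 CPM in early and 1421 to 2650 CPM in late libraries. Red cell genes were called lower for 3 of 7 (221 to 384 against 388 to 1460 CPM), stromal fibroblast markers for 3 of 14, adipocyte markers for 1 of 15 and macrophage markers for 0 of 14. Granulocyte and mast cell genes went the other way, fitted higher in early for 8 of 8 (median 0.29; 1 called higher), with sums of 48.9 to 80.8 CPM in early and 27.5 to 60.7 CPM in late libraries. All these calls came from the fit in which no GC trend was removed. The part of these cell types in the values of Jun, Junb and Ier2 was not tested.

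Within a group and series the members differed widely in how much they varied. The biological coefficient of variation from edgeR was 0.503 for Fos, 0.447 for Fosb, 0.444 for Nr4a1, 0.424 for Egr1 and 0.349 for Atf3, and 0.224 for Junb, 0.201 for Dusp1, 0.198 for Jun and 0.154 for Ier2; the median of all genes was 0.228. Fos was thus more variable than 86.9% of all genes, and Ier2 than 29.6%. The ratio of the highest to the lowest library was 6.93 for Fosb, 4.83 for Nr4a1, 4.61 for Egr1 and 4.54 for Fos, and 2.25 for Dusp1. Control 2 was the highest library for Fos, Fosb, Egr1 and Ier2, and control 6 for Jun and Nr4a1. All 9 members were above their own mean in let-7e 3, and all 9 were below it in let-7d 2 and let-7e 1, both early.

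The members rose and fell together across libraries in part. Of the 36 pairs, 35 had a Pearson correlation of log2 CPM above 0 over 17 libraries, from -0.0012 (Egr1 and Dusp1) to 0.86 (Junb and Ier2), with a median of 0.46. Beside this, each member had r above 0 with 45.8% to 55.3% of all genes, and the 95th percentile of its r with all genes was 0.36 to 0.64. Of its 8 fellow members, 6 exceeded that percentile for Fosb and 4 for Egr1, 3 for Jun, Junb and Atf3, and 2 for Fos, Ier2, Dusp1 and Nr4a1. With 100000 permutations and Benjamini-Hochberg adjustment over the 36 pairs, 10 pairs passed by Pearson's r and 3 by Spearman's rho, and these 3 passed by both. Junb and Ier2 had r = 0.86 (permutation p 2.0e-05, adjusted 7.2e-04) and rho = 0.93 (permutation p 1.0e-05, the smallest the permutations can give). Among all genes Ier2 ranked 3rd in r with Junb and Junb 13th with Ier2. Among other called pairs, Egr1 was 134th for Junb and Junb 5th for Egr1, and Egr1 was 25th for Fos and Fos 8th for Egr1. Nr4a1 was 202nd for Atf3 and Atf3 214th for Nr4a1. Ier2 was 430th for Jun and Jun 547th for Ier2, and Ier2 was 31st for Egr1 and Egr1 1095th for Ier2. For Junb and Ier2, without the 2 libraries farthest from the median of Junb r was 0.84. Within the late libraries r was 0.84 and with the GC trend removed 0.72, both past the threshold.

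Junb and Egr1 had r = 0.70 (permutation p 0.0017, adjusted 0.018) and rho = 0.69 (permutation p 0.0030, adjusted 0.036), with 0.78 without the 2 farthest libraries and 0.80 within the late ones. Atf3 and Nr4a1 had r = 0.66 (permutation p 0.0040, adjusted 0.021) and rho = 0.74 (permutation p 0.0012, adjusted 0.022), with 0.71 without the 2 farthest; within the late libraries r was 0.70 (adjusted permutation p 0.069) and without the GC trend 0.63 (0.052). Fos and Egr1 had r = 0.68 (permutation p 0.0025, adjusted 0.018) and rho = 0.62 (adjusted 0.071); r was 0.50 without control 2 and let-7d 3 and 0.73 within the late libraries (adjusted permutation p 0.054). Jun and Dusp1 had r = 0.69 (adjusted permutation p 0.018), rho = 0.61 (0.071) and 0.67 within the late libraries.

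Pairs of Jun with Junb and with Ier2 had lower values within the late libraries than over all libraries. Jun and Ier2 had r = 0.69 over all libraries (adjusted permutation p 0.018; rho = 0.58) but 0.19 within the late ones and 0.41 without the GC trend. Jun and Junb had 0.57 (adjusted permutation p 0.056) but 0.03 within the late libraries. The remaining called pairs were Atf3 and Dusp1 (r = 0.67), Fosb and Egr1 (0.63), Fosb and Jun (0.61) and Egr1 and Ier2 (0.59). Within the late libraries the median over the 36 pairs was 0.31 and 2 pairs passed, Junb with Ier2 and Junb with Egr1; for deviations from the mean of each group and series the median was 0.40 and 6 pairs passed. Near 0 were Fos with Nr4a1 (0.01) and Egr1 with Nr4a1 (0.10) and with Dusp1.

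**Figure D4:**
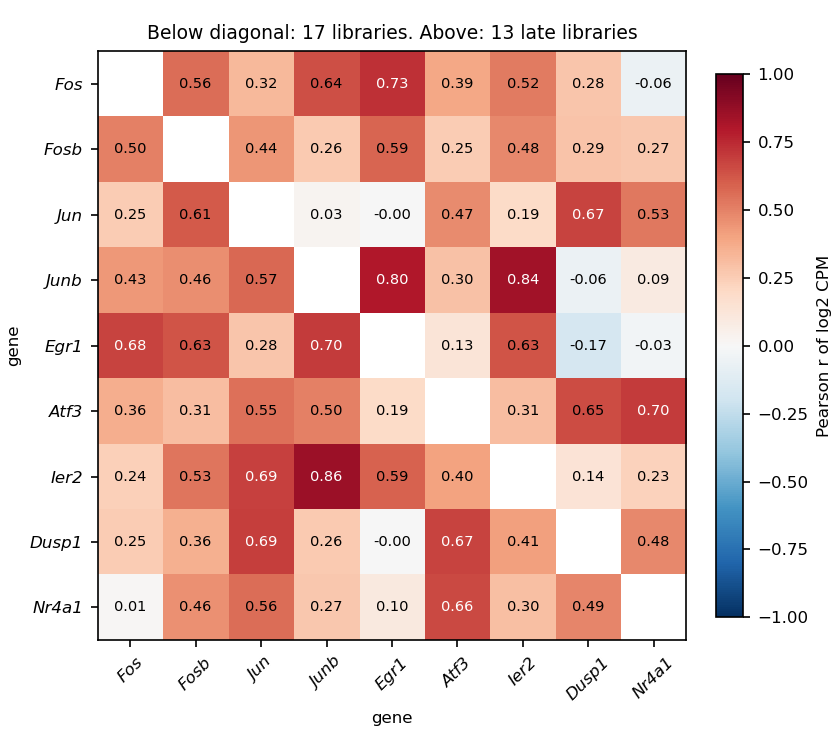
Pearson r of log2 CPM for each pair of members, over 17 libraries below the diagonal and over the 13 late libraries above it, on a colour scale from -1 to 1. Junb with Ier2 (0.86 and 0.84) and Junb with Egr1 (0.70 and 0.80) are high in both, and Jun with Ier2 falls from 0.69 to 0.19.

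**Figure D5:**
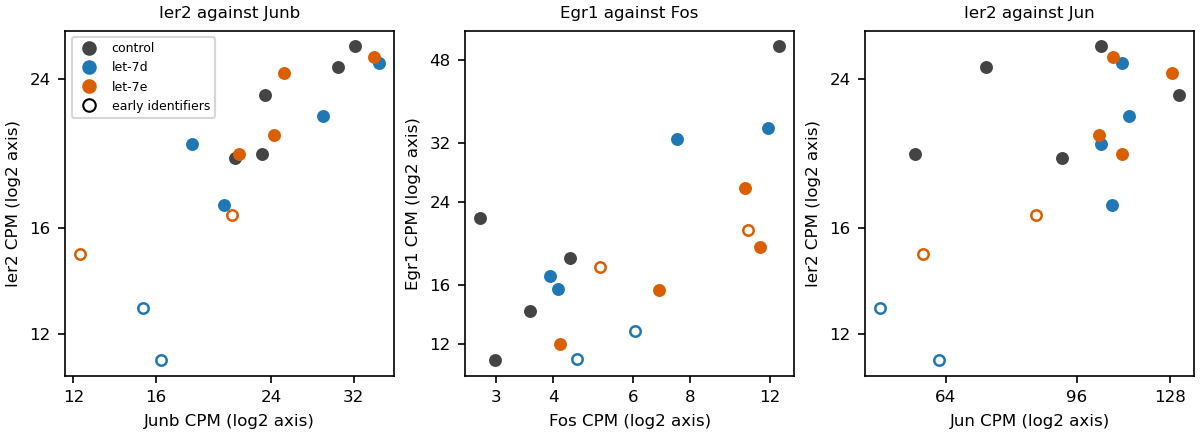
Ier2 against Junb, Egr1 against Fos and Ier2 against Jun, each point a library in CPM on log2 axes, coloured by group and open for early identifiers. The filled points of Ier2 and Junb lie along a line (late r = 0.84), and those of Ier2 and Jun do not (late r = 0.19).

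A fit of every other gene on the log2 CPM of Fos, with group and series as terms, asked which transcripts vary with Fos inside groups. No gene of 16451 was called by edgeR (0%), 5.23% had an unadjusted p under 0.05 and 3.58% did with a higher level at higher Fos. Of the 8 other members 4 did, all with a slope above 0, and Egr1 had the smallest p of all genes. Its slope was 0.72 ± 0.13 log2 units per log2 unit of Fos (SE; edgeR unadjusted p 6.4e-05, adjusted p 0.896); the DESeq2 Wald test called 4 genes, of which Egr1 was one (adjusted p 0.0108). Junb came 19th with a slope of 0.34 ± 0.09 (unadjusted p 0.0014), Ier2 481st with 0.16 ± 0.07 (0.029) and Fosb 673rd with 0.47 ± 0.21 (0.040). Atf3 (0.22), Jun (0.09), Dusp1 (0.05) and Nr4a1 (0.02) did not reach that level. Of the 56 other primary response genes 28 had a slope above 0 and 28 below; Zfp36l1 and Btg2, which act in RNA decay, had 0.24 each and Ier5 0.32, and Per1 -0.26, Crem -0.37 and Amotl2 -0.16 had the smallest p of those below. Without control 2, the library highest in Fos, the slope of Egr1 was 0.61 (unadjusted p 0.0052). Beside the members, macrophage markers had a slope above 0 for 14 of 14 genes (median 0.29, 3 with unadjusted p under 0.05) and stromal fibroblast markers for 13 of 14. Red cell genes did for 7 of 7, smooth muscle genes for 0 of 11 and spermatid genes for 0 of 10, with 0 at an edgeR unadjusted p under 0.05 in each list. Control 3, the library lowest in Fos at 2.77 CPM, held 18094 CPM of the smooth muscle genes, against at most 978 CPM elsewhere. Control 6, at 3.56 CPM of Fos, held 1808 CPM of the spermatid genes. The part of these cells in the values of Fos was not tested.

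The genes whose log2 CPM followed the mean of the 9 members most closely over 17 libraries, named by a rule, were Ier5 (r = 0.87), Man1c1 (0.87), Plekho2 (0.84), Slc44a2 (0.83), St6galnac6 (0.83), Tspyl3 (0.82), Mamdc2 (0.81), Dok1 (0.81), Efhd2 (0.81) and Fchsd1 (0.81). These values are given as a description, since the genes were picked for them. Ier5, itself an immediate early gene related to Ier2, ranged from 14.2 CPM in let-7d 1 to 42.7 CPM in control 2, the library in which Fos, Fosb, Egr1 and Ier2 also peaked. Within the 13 late libraries r ranged from 0.73 (Fchsd1) to 0.87 (Ier5).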

How the data were processed

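RNA from whole eWAT was sequenced on a NovaSeq instrument after extraction with TRI reagent, per the labels' protocols. The authors deposited raw read counts per Ensembl gene for 17 libraries already filtered on CPM (the cut-off is not given in the sources used here); STAR and GRCm38.p6 are named in the submitters' processing notes. The authors' RPKM table was not used, since the gene lengths it implies are not constant per gene, and control replicate 5 was not analysed here. Libraries were grouped by their treatment label. Counts were scaled by TMM and fitted with edgeR 4.0.16 (R 4.3.3, limma 3.58.1), with group and identifier series as terms; the quasi-likelihood test was used with Benjamini-Hochberg adjustment over all genes and a threshold of 0.05. filterByExpr removed 0 genes. Level is CPM, and log2 CPM used a prior count of 2. Correlations were tested with 100000 two-sided permutations. Fits were tested on simulated data. No libraries looked like duplicates (smallest chi-square per degree of freedom 15.4). Alternatives used DESeq2 1.42.0, other scaling, filters, terms and library sets, and a GC trend removed per library (lowess span 0.3). Named genes were all 9 members, the 10 genes closest to the members' mean, and the 3 primary response genes with the smallest p in each direction. The members and lists were chosen with earlier results of these data known.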

Additional observations from a re-analysis of the deposited data

Results flagged for a closer look

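Of 27 sets tested (9 members in 3 groups), 3 held a library whose gap to the nearest other library was large for the range of its group. Chance gives about 1 in 20 for independent, normally distributed values. These values were CPM without a log, and the flags of Fos and Egr1 share control 2, so that rate is only a guide. Fos was at 12.6 CPM in control 2, against 2.77 to 4.35 CPM in the other controls. Egr1 was at 51.2 CPM in the same library, against 11.1 to 22.2 CPM. Dusp1 was at 90.1 CPM in let-7d 6, against 61.5 to 67.7 CPM in the other let-7d libraries.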

How the results depend on the processing

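Between groups edgeR called 0 genes under each edgeR alternative, with 1676, 1729 and 1097 genes at an unadjusted p under 0.05 for let-7d and let-7e, each against control, and for let-7e against let-7d. These unadjusted counts moved over 1.5 times to 2713 for let-7d and 2739 for let-7e without control 2, to 1052 for let-7d without let-7d 3, to 966 and 935 with only the groups compared, to 1101 and 967 under the filter at 5 CPM (fewer genes tested), to 1120 and 1123 for let-7e in the late libraries and without the 4 libraries, and to 623 and 708 for let-7e against let-7d without let-7d 1 and without let-7e 2. The DESeq2 Wald test called 10, 15 and 14 genes, and 4 genes that vary with Fos, where edgeR called 0 (860 unadjusted). That unadjusted count for Fos moved to 403 without control 2, 1589 with the replicate block and 2027 without the 4 libraries. Between the identifier series 2005 genes were called, 446 with the GC trend removed (chosen after the data were seen) and 1260 to 2326 leaving out 1 library. Pairs of members called numbered 10, against 6 for deviations within group and series, 2 in the late libraries, 4 with the GC trend removed, and 6 to 16 leaving out 1 library. Fosb has no value under the filter at 5 CPM.

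Same-numbered libraries correlated from -0.33 to 0.50 in their deviations from the group means, with 0.50 for let-7d 1 and let-7e 1, both early. Libraries of different numbers were not compared in this way, so these values cannot settle whether the numbers pair the libraries. With the replicate block 44 genes were called between the series, and the log2 change was -0.48 for Jun, -0.71 for Junb and -0.64 for Ier2 (edgeR adjusted p 0.430, 0.222 and 0.187). Early libraries all carry replicate number 1 or 2, numbers that only controls carry among the late ones. The block thus overlaps strongly with the series, which limits what this fit says about the series. The replicate block turned the direction of Egr1 in let-7d (0.29) and let-7e (0.23), Junb in let-7e (-0.030), Fosb in let-7e against let-7d (-0.036) and Nr4a1 between the series (0.71). With it the slope on Fos was 0.44 for Egr1 (unadjusted p 0.101) and 0.48 for Jun (unadjusted p 3.3e-04, edgeR adjusted p 0.367).

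For let-7d against control, other reversed log2 values were Fos -0.053, Dusp1 0.15 and Nr4a1 0.036 without the 4 libraries with other tissue, Jun -0.0010 and Atf3 -0.11 without the series term, Egr1 0.10 and Atf3 -0.040 in the late libraries, and Egr1 0.10 and Atf3 -0.043 with only the groups compared. For let-7e against control they were Junb -0.18 and Ier2 -0.16 without the series term, Junb -0.012 with the GC trend removed and Nr4a1 0.58 without the 4 libraries. For let-7e against let-7d Fosb had -0.058 without the series term, -0.25 in the late libraries and -0.0070 with the GC trend removed. The slope of Nr4a1 on Fos was -0.062 in the late libraries. Correlations turned for Fos with Nr4a1 (-0.056), Jun with Egr1 (-0.0018), Junb with Dusp1 (-0.056) and Egr1 with Nr4a1 (-0.030) in the late libraries, for Junb with Dusp1 (-0.046) within group and series, and for Egr1 with Dusp1 (0.10) without the 4 libraries. The cause was not tested in these cases.

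Leaving out 1 library turned the direction of some values. In let-7d Junb ranged from -0.18 to 0.093, Egr1 from -0.29 to 0.42, Atf3 from -0.053 to 0.25, Dusp1 from -0.12 to 0.13 and Nr4a1 from -0.49 to 0.29. In let-7e Junb ranged from -0.10 to 0.11, Egr1 from -0.33 to 0.34 and Nr4a1 from -0.28 to 0.33. Between let-7e and let-7d Fosb ranged from -0.21 to 0.14, Junb from -0.058 to 0.17, Egr1 from -0.21 to 0.086 and Nr4a1 from -0.11 to 0.33. Slopes on Fos ranged from -0.011 to 0.093 for Dusp1 and from -0.062 to 0.24 for Nr4a1. Correlations ranged from -0.044 to 0.18 for Fos with Nr4a1 and from -0.11 to 0.069 for Egr1 with Dusp1. The correlation of Egr1 and Nr4a1 ranged from -0.045 to 0.24. The direction of Fos, Fosb and Jun in let-7e was the same under the alternatives run. Depth limits Fosb most, at 12 to 78 counts a library.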
